A study of Danio rerio with 18 samples.

Results

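Cocktail 5 is one of 8 pools of 25 guide RNAs (gRNAs) delivered with the RNA-cutting nuclease RfxCas13d to zebrafish embryos, and it is represented by 2 of the 18 RNA-seq libraries. Its libraries were taken by their titles and set against the 14 libraries of Cocktails 1 to 4 and 6 to 8, with 2 libraries per cocktail. The 2 libraries labelled RfxCas13d control are given beside each gene whose level is stated. All libraries came from total RNA of whole embryos at 4 h after fertilisation, and the 16 cocktail libraries are labelled as RfxCas13d knockdown. The study used 200 gRNAs in all to test how far models trained outside the embryo predict mRNA loss within it, at a stated amount of 10 pg per embryo. The fish strain, the number of embryos pooled per library, what the control embryos received besides RfxCas13d, whether the 10 pg applies to a gRNA or to a cocktail, and the genes that each cocktail was aimed at are not stated in the labels. No gene below is therefore called a target. The labels do not say that replicates came from separate injections, so the p-values measure the spread between these libraries, which may be technical.

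RfxCas13d, from the Cas13d family, is led by a gRNA to a complementary RNA and cleaves it, so the abundance of the matched transcript can fall while the gene itself stays intact. The early zebrafish embryo starts from mRNAs laid down in the egg, and its own genome is switched on during the blastula stages. Whole embryos at this age hold the deep cells that will form the body, a flattened outer epithelium called the enveloping layer, and the yolk syncytial layer beneath. In such bulk samples, fewer cells of a type and less RNA per cell cannot be told apart.

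The count tables held 3093052 and 4003809 reads assigned to genes in Cocktail 5, between 2544027 and 4019311 in the 14 others, and 4864939 and 3684672 in the controls. The test covered 14514 of the 32520 genes listed. The 2 Cocktail 5 libraries had a correlation of 0.959 on log2 scaled counts (CPM), with an SD of 0.22 log2 units for the median gene, whereas the replicates of Cocktails 1 and 3 lay further apart, with SDs of 0.38 and 0.40. Reads in no annotated feature made up 5.48% and 6.48% of the Cocktail 5 tables, 4.08% to 5.55% of the 14 others and 6.35% and 6.16% of the controls. An exact permutation of single libraries gave two-sided p = 0.025 for Cocktail 5 against the other cocktails (smallest p of the 120 splits 0.00833). It ignores that libraries come in pairs per cocktail and is not adjusted for the other measures, so it cannot show that Cocktail 5 stands apart as a cocktail. Replicate 2 of Cocktail 5 was above all 14 others. Its replicate 1 was within their range, near the 5.43% and 5.49% of Cocktail 6. Genes with at least 1 count numbered 18020 and 18445 in Cocktail 5 and 16742 to 18160 in the other cocktails (exact permutation p = 0.0667, two-sided). Markers were set beside the labels. Of 7 genes of later tissues and blood, not due at this stage, 6 (gata1a, hbbe1.1, mpx, mylpfa, myod1 and neurod1) were at 0 in both Cocktail 5 libraries. These zeros concern the stage and not whether whole embryos were used. The 9 enveloping layer, 4 yolk syncytial layer and 5 germ plasm markers were all detected in Cocktail 5.

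Cocktail 5 differed from the mean of the 7 other cocktails at 10 lower and 36 higher genes. The 10 lower genes made up 0.0689% of those tested and the 36 higher genes 0.248%, where a gene was called at an adjusted p under 0.05 in edgeR's quasi-likelihood test and a change of at least 2-fold. Among the lower genes were the histone methyltransferase subunit rbbp5, the histone acetyltransferase naa40, the splicing-associated rbm25b and the phosphatase-like ctdspl3, which stood 3.23-fold to 7.56-fold below the other cocktails. In 9 of the 10 the level was also called below the control, as it was in 3.47% of all genes tested. The same Cocktail 5 libraries enter both comparisons, so that share is not a baseline for the 10. At an unadjusted p under 0.05, 248 genes were lower and 865 higher. When each of the other cocktails was set against its own 7 others in the same way, the number of lower genes ran from 5 for Cocktail 2 to 35 for Cocktail 1, and the number of higher genes from 3 for Cocktail 4 to 52 for Cocktail 7. On the authors' TPM values, limma called 10 genes lower and 13 higher, of which 8 and 7 were among those above. With either Cocktail 5 library left out, 6 genes were called lower, and they were the same 6 both times: ctdspl3, rbm25b, rbbp5, naa40, usp1 and emc6.

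**Figure D1:**
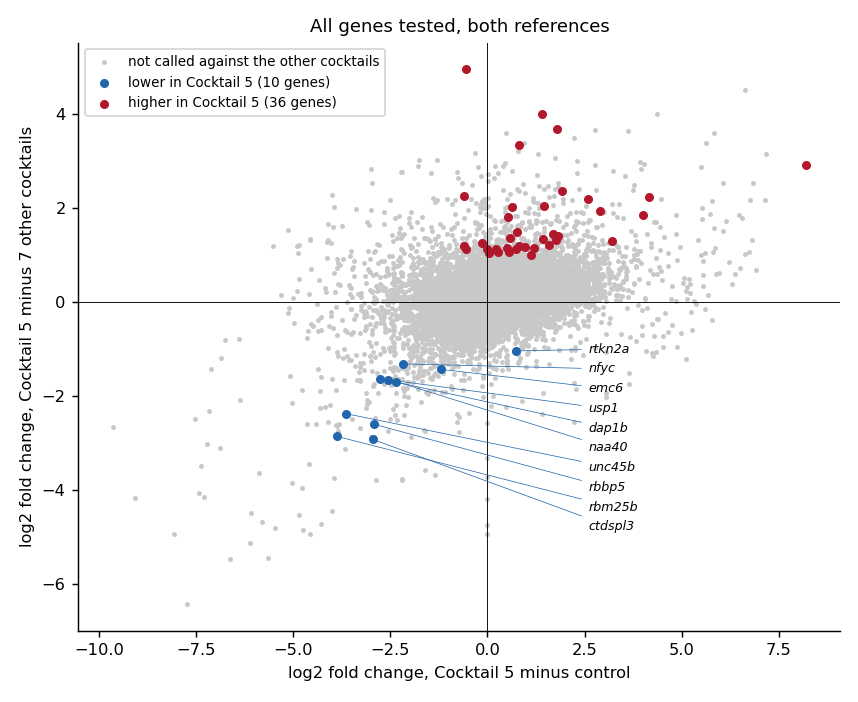
Log2 fold change of each of the 14514 genes tested in Cocktail 5 against the control (x axis) and against the mean of the 7 other cocktails (y axis). The 10 lower genes (blue, named) all lie to the left of zero on the x axis except rtkn2a, while the 36 higher genes (red) lie on both sides of it.

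The comparison with single cocktails gave a second view of the lower genes. Of all genes tested, 11 (0.0758%) were called lower in Cocktail 5 than in at least 5 of the 7 other cocktails taken one at a time, and all 11 were called against each of Cocktails 1, 2, 3, 7 and 8. They were ctdspl3, rbm25b, rbbp5, naa40, emc6, usp1, nfyc, ilf2, tspan31, dnajc5ga and cdca7b, of which the first 7 were also called against the mean. The opposite pattern was met by 1 gene, bckdha (0.00689%). Over all genes, Cocktail 5 was called lower than Cocktail 1 at 18 (0.124%) and higher at 57 (0.393%), lower than Cocktail 2 at 14 (0.0965%) and higher at 15 (0.103%), and lower than Cocktail 3 at 19 (0.131%) and higher at 58 (0.4%). It was lower than Cocktail 7 at 16 (0.11%) and higher at 24 (0.165%), and lower than Cocktail 8 at 12 (0.0827%) and higher at 14 (0.0965%). None of the 11 was called lower than in Cocktail 4, and 5 were called lower than in Cocktail 6. The genes unc45b, dap1b and rtkn2a were called against the mean and against only 2 single cocktails each. Together with the 11 they make 14 genes, described here by what they do. Levels are CPM, which are counts scaled to a common library size, and fold changes are on the log2 scale with their standard error.

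Genes of chromatin and transcription came first. The gene rbbp5 (ENSDARG00000042147) encodes a core subunit shared by the MLL/SET1 complexes that methylate lysine 4 of histone H3. It stood at 9.76 and 12.7 CPM in Cocktail 5, at a lowest, median and highest level of 18.3, 76.7 and 112 CPM in the 14 other libraries, and at 86.9 and 85.3 CPM in the controls. Both Cocktail 5 libraries were below every other library, and the next lowest were the 2 of Cocktail 4. The difference was -2.60 ± 0.25 against the other cocktails (adjusted p = 2.22e-06) and -2.93 ± 0.28 against the control (adjusted p = 7.14e-07), leaving 13.02% of the control level.

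The gene naa40 (ENSDARG00000024109) encodes an acetyltransferase that acts on the N termini of histones H4 and H2A. Its level was 75.2 and 86.8 CPM in Cocktail 5, 102, 313 and 384 CPM as the lowest, median and highest of the 14 others, and 436 and 395 CPM in the controls. Again the groups did not overlap, with Cocktail 4 nearest. The fold change was -1.69 ± 0.20 against the others (adjusted p = 8.45e-05) and -2.36 ± 0.24 against the control (adjusted p = 1.78e-06). A second identifier bears the name naa40 in the files and had 0 counts in both groups.

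The subunit gene nfyc (ENSDARG00000070151) belongs to the trimeric factor NF-Y, which binds CCAAT boxes in promoters. It measured 32.7 and 41.5 CPM in Cocktail 5, 22.7, 114 and 178 CPM as lowest, median and highest in the others, and 192 and 145 CPM in the controls. Here both Cocktail 6 libraries lay below Cocktail 5, and the other 12 lay above it. The fold change against the others was -1.32 ± 0.21 (adjusted p = 0.00271), and the call was lost without replicate 1 (adjusted p = 0.0874) or replicate 2 (adjusted p = 0.113) of Cocktail 5. Against the control it was -2.18 ± 0.25 (adjusted p = 7.44e-06).

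The proliferation-associated gene cdca7b (ENSDARG00000076659), whose human relative CDCA7 works with the chromatin remodeller HELLS, had 68.9 and 76.9 CPM in Cocktail 5 and 196 and 219 CPM in the controls. The other cocktails ran from 8.36 CPM in a Cocktail 4 library to 275 CPM, with a median of 212 CPM. Cocktail 5 thus sat between Cocktail 4 and all other libraries. The fold changes against Cocktails 1, 2, 3, 7 and 8 lay between -1.74 ± 0.22 (Cocktail 3) and -1.54 ± 0.22 (Cocktail 8), with adjusted p-values of at most 0.000565, and the one against the control was -1.51 ± 0.22 (adjusted p = 6.10e-05). Against the mean of all 7 it was -0.82 ± 0.17, under the 2-fold minimum, and without both libraries of Cocktail 4 it was -1.46 and called.

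Genes linked to RNA, or by name to RNA polymerase II, formed the next group. The gene rbm25b (ENSDARG00000006395) encodes an RNA-binding protein associated with splicing. It had 15.4 and 11.4 CPM in Cocktail 5, 8.04, 143 and 214 CPM as lowest, median and highest of the 14 others, and 205 and 184 CPM in the controls. The 2 libraries of Cocktail 4 were lower still, and no other cocktail library was below 89.3 CPM. The fold change of -2.86 ± 0.24 against the others (adjusted p = 4.15e-07) went with one of -3.86 ± 0.28 against the control (adjusted p = 3.76e-08), so that 6.89% of the control level was left.

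The gene ilf2 (ENSDARG00000014591) encodes NF45, a nuclear protein that works in RNA-binding complexes. Its level was 366 and 306 CPM in Cocktail 5 and 1151 and 1197 CPM in the controls. The other cocktails spanned 190.4 to 985 CPM with a median of 790.2 CPM, and the 2 libraries below Cocktail 5 were again those of Cocktail 4. Against Cocktails 1, 2, 3, 7 and 8 the fold change lay between -1.34 ± 0.22 (Cocktail 2) and -1.17 ± 0.22 (Cocktail 1), with adjusted p-values of at most 0.00994. Against the control it was -1.81 ± 0.22 (adjusted p = 1.47e-05). Against the mean of all 7 it was -0.95 ± 0.18 (adjusted p = 0.0149), under the 2-fold minimum.

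The gene ctdspl3 (ENSDARG00000089646) is named for its likeness to the small phosphatases of the RNA polymerase II C-terminal domain. It stood at 23.3 and 15.9 CPM in Cocktail 5, at 38.0, 183 and 257 CPM as lowest, median and highest in the 14 others, and at 149 and 153 CPM in the controls. No library of another cocktail reached down to Cocktail 5. This was the largest decrease against the other cocktails among the 10 called, at -2.92 ± 0.21 (adjusted p = 4.13e-08), and against the control it was -2.95 ± 0.24 (adjusted p = 1.50e-07).

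Protein quality control, DNA repair and membrane proteins accounted for most of the remaining genes. The gene usp1 (ENSDARG00000056414) encodes the deubiquitinase that removes ubiquitin from PCNA and FANCD2. It had 44.1 and 49.6 CPM in Cocktail 5, 26.3, 234 and 345 CPM as lowest, median and highest in the others, and 292 and 344 CPM in the controls. The 4 libraries of Cocktails 4 and 6 were all below both Cocktail 5 libraries, and the other 10 started at 205 CPM. Because the mean of the 7 others includes those 4, the fold change against it, -1.63 ± 0.19 (adjusted p = 5.32e-05), was smaller in size than that against any of the other 5 cocktails, which ran from -2.67 ± 0.23 (Cocktail 2) to -2.21 ± 0.22 (Cocktail 3). Against the control it was -2.76 ± 0.23 (adjusted p = 1.50e-07).

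The gene emc6 (ENSDARG00000035282) encodes a subunit of the endoplasmic reticulum membrane complex, which inserts membrane proteins. It measured 76.2 and 97.7 CPM in Cocktail 5, 62.2, 261 and 484 CPM as lowest, median and highest in the 14 others, and 194 and 206 CPM in the controls. Cocktail 4 overlapped Cocktail 5, and the next library stood at 222 CPM. The fold change was -1.43 ± 0.20 against the others (adjusted p = 0.000553) and -1.20 ± 0.24 against the control (adjusted p = 0.00132), which left 43.4% of the control level.

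The tetraspanin gene tspan31 (ENSDARG00000074554) had 50.99 and 47.06 CPM in Cocktail 5 and 144 and 112 CPM in the controls. The other cocktails had a lowest, median and highest level of 23.2, 131 and 161 CPM, and the 4 libraries below Cocktail 5 were those of Cocktails 4 and 6. Fold changes against the other 5 cocktails lay between -1.60 ± 0.24 (Cocktail 8) and -1.36 ± 0.24 (Cocktail 2), with adjusted p-values of at most 0.00642, and the one against the control was -1.38 ± 0.24 (adjusted p = 0.000349).

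The gene dnajc5ga (ENSDARG00000041896), of the cysteine string protein family of DNAJ co-chaperones, did not follow the others against the control. Its level of 134 and 177 CPM in Cocktail 5 lay near the 136 and 103 CPM of the controls, and their difference of 0.38 ± 0.22 was not called (adjusted p = 0.266). The mean of the 7 others was called above the control, at 1.21 ± 0.19 (adjusted p = 5.54e-05), with a median of 387 CPM, a highest value of 529 CPM and a lowest of 52.3 CPM in Cocktail 4. The call below 5 cocktails therefore describes a gene that stood above the control in those cocktails and was not called below it in Cocktail 5.

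The gene rtkn2a (ENSDARG00000053558), which encodes a rhotekin, was likewise not below the control in Cocktail 5. Among single cocktails it was called lower than in Cocktails 7 and 8 only. It stood at 60.4 and 89.1 CPM in Cocktail 5, at 101, 149 and 212 CPM as lowest, median and highest in the others, and at 52.3 and 38.3 CPM in the controls. The other cocktails exceeded the control by 1.76 ± 0.23 (adjusted p = 9.22e-06), and Cocktail 5 by 0.72 ± 0.27 (adjusted p = 0.0709), which was not called. With limma on log2(TPM + 1), rtkn2a was called above the control in Cocktail 5, at 1.22 (adjusted p = 0.026). Its fold change of -1.04 ± 0.22 against the others (adjusted p = 0.0326) lost the call in 13 alternatives, among them leaving out replicate 1 (adjusted p = 0.382) or replicate 2 (adjusted p = 0.373) of Cocktail 5.

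The remaining pair was expressed at low levels. The gene unc45b (ENSDARG00000008433), a myosin chaperone best known from muscle, rested on 5 and 7 counts in Cocktail 5, or 1.57 and 1.77 CPM. The other cocktails ranged from 4.10 to 17.6 CPM with a median of 7.89 CPM, and the controls had 18.7 and 24.1 CPM, without overlap. The fold change was -2.37 ± 0.54 against the others (adjusted p = 0.0438) and -3.64 ± 0.61 against the control (adjusted p = 0.000326), and the first call was lost in 17 alternatives, with adjusted p = 0.266 without replicate 1 and 1.00 without replicate 2 of Cocktail 5.

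The gene dap1b (ENSDARG00000109678), named for death-associated protein 1, had 19 and 21 counts in Cocktail 5, or 5.98 and 5.31 CPM, as against 32.9 and 33.4 CPM in the controls. Cocktail 6 was as low, at 6.88 and 5.33 CPM, and the other 12 libraries ran up to 39.7 CPM. The fold change against the others was -1.67 ± 0.34 (adjusted p = 0.0275), and the call was lost without replicate 1 (adjusted p = 0.14) or replicate 2 (adjusted p = 1.00) of Cocktail 5. A second identifier of the same name had more reads, with 406 and 475 counts in Cocktail 5 and 555 and 491 in the controls, before scaling. How reads were shared between the copies is uncertain, so the decrease is stated for ENSDARG00000109678 alone.

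**Figure D2:**
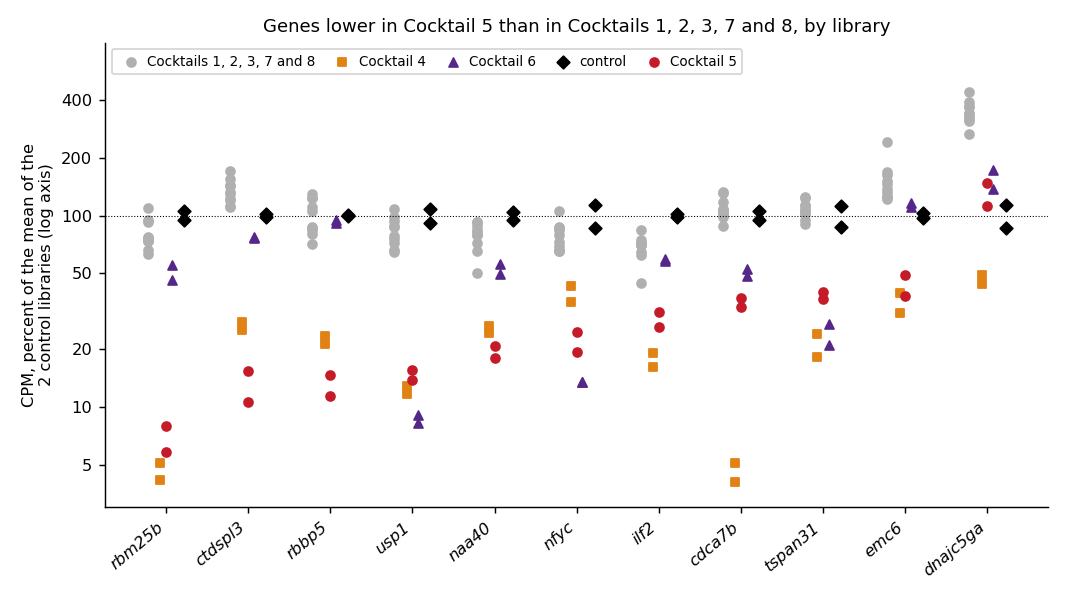
CPM of the 11 genes called lower in Cocktail 5 than in each of Cocktails 1, 2, 3, 7 and 8, in every library, as a percentage of the mean of the 2 control libraries (log axis, dotted line at the control mean). Cocktail 5 (red) and Cocktail 4 (orange) lie below the grey libraries in each of the 11, and Cocktail 6 (purple) lies below them in mean in 10.

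Across the 11 genes the median level was 22.03% of the control in Cocktail 5 and 22.4% in Cocktail 4, against 52.7% in Cocktail 6 and between 85.3% and 105% in Cocktails 1, 2, 3, 7 and 8. In 10 of the 11 the level in Cocktail 5 was called below the control, at 6.89% to 43.4% of the control level. Over all genes tested 3.47% were called so. That share is not a baseline, because the same Cocktail 5 libraries served to choose the 11. The genes were taken for being low against those 5 cocktails, so their distance from them is a description. The choice did not name Cocktail 4 or 6, but its minimum of 5 of 7 cocktails left room for others as low as Cocktail 5. Which 5 cocktails serve as reference was read off the same 11 genes. The counts for Cocktails 4 and 6 that follow are therefore descriptions too, and the shares over all genes are not a baseline for them. The mean of Cocktail 4 was below the means of Cocktails 1, 2, 3, 7 and 8 in 11 of 11, as in 15.3% of all genes tested, and that of Cocktail 6 in 10 of 11, as in 16.6% of all genes tested.

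Set directly against Cocktail 4, Cocktail 5 was called lower at 2 genes (0.0138%) and higher at 23 (0.158%). The 2 lower genes were bzw1a, a translation regulator, at -1.20 ± 0.22 (adjusted p = 0.0231), and sox19b, a maternally supplied SoxB1 transcription factor, at -1.03 ± 0.20 (adjusted p = 0.0278). Levels of bzw1a were 261 and 192 CPM in Cocktail 5, 540.4 and 502 CPM in Cocktail 4 and 166 and 150 CPM in the controls. Those of sox19b were 221 and 179 CPM in Cocktail 5, 427 and 388 CPM in Cocktail 4 and 127 and 88.3 CPM in the controls. Neither gene was lower in Cocktail 5 than in the control. Cocktail 4 was not alone here: Cocktail 5 was also called below Cocktails 1, 2 and 3 at bzw1a, and below Cocktails 1 and 2 at sox19b. At bzw1a it was called above Cocktails 7 and 8.

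The genes higher in Cocktail 5 than in Cocktail 4 are shown by 4 examples, chosen after their values were seen. The gene tia1, which encodes a stress granule RNA-binding protein, had 336 and 334 CPM in Cocktail 5, 28.95 and 16.72 CPM in Cocktail 4 and 473 and 496 CPM in the controls, a difference of 3.87 ± 0.26 (adjusted p = 8.91e-09). For cstf2, a subunit of the cleavage stimulation factor of mRNA 3' end formation, the levels were 110 and 98.4 CPM in Cocktail 5, 7.08 and 15.2 CPM in Cocktail 4 and 295 and 289 CPM in the controls. Cocktail 5 therefore exceeded Cocktail 4 at cstf2 by 3.22 ± 0.30 (adjusted p = 2.14e-06) and was itself called below the control by -1.49 ± 0.26 (adjusted p = 0.000508). The RNA-binding gene syncripl differed by 1.90 ± 0.19 (adjusted p = 4.68e-06) and the palmitoylation cofactor gene golga7 by 2.85 ± 0.28 (adjusted p = 2.39e-06). Levels of syncripl were 246 and 268 CPM in Cocktail 5, 71.4 and 65.95 CPM in Cocktail 4 and 330 and 295 CPM in the controls. Those of golga7 were 480 and 916 CPM in Cocktail 5, 101 and 91.96 CPM in Cocktail 4 and 630 and 536 CPM in the controls. At all 4 examples, Cocktail 4 was the only single cocktail that Cocktail 5 was called above.

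Of the 11 genes above, 2 were called higher in Cocktail 5 than in Cocktail 4: cdca7b by 2.94 ± 0.25 (adjusted p = 4.73e-07) and dnajc5ga by 1.49 ± 0.23 (adjusted p = 0.00283). The difference for the other 9 lay between -1.04 ± 0.24 for ctdspl3 (adjusted p = 0.0835) and 0.87 ± 0.24 for tspan31 (adjusted p = 0.249) and was not called. A p that misses the threshold does not show that the levels were alike. Leaving out 1 library at a time moved the 23 higher calls to between 7 (without Cocktail 4 replicate 1) and 139 (without Cocktail 1 replicate 2), as given with the other settings in the closing section.

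Against Cocktail 6, Cocktail 5 was called lower at 5 genes (0.0344%) and higher at 1 (0.00689%). The 5 were all among the 11: rbm25b at -2.88 ± 0.27 (adjusted p = 3.37e-06), rbbp5 at -2.82 ± 0.28 (adjusted p = 5.63e-06), ctdspl3 at -2.57 ± 0.24 (adjusted p = 3.37e-06), naa40 at -1.43 ± 0.24 (adjusted p = 0.0164) and emc6 at -1.39 ± 0.24 (adjusted p = 0.0206). In Cocktail 6 these genes stood at 50.6% to 114% of the control, and in Cocktail 5 at 6.89% to 43.4%. The higher gene was rnf128a, a ubiquitin ligase gene, with 151 and 175 CPM in Cocktail 5, 57.2 and 68.3 CPM in Cocktail 6 and 129 and 107 CPM in the controls (1.38 ± 0.25, adjusted p = 0.0345). The same gene was at 27.7 and 19.8 CPM in Cocktail 4.

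**Figure D3:**
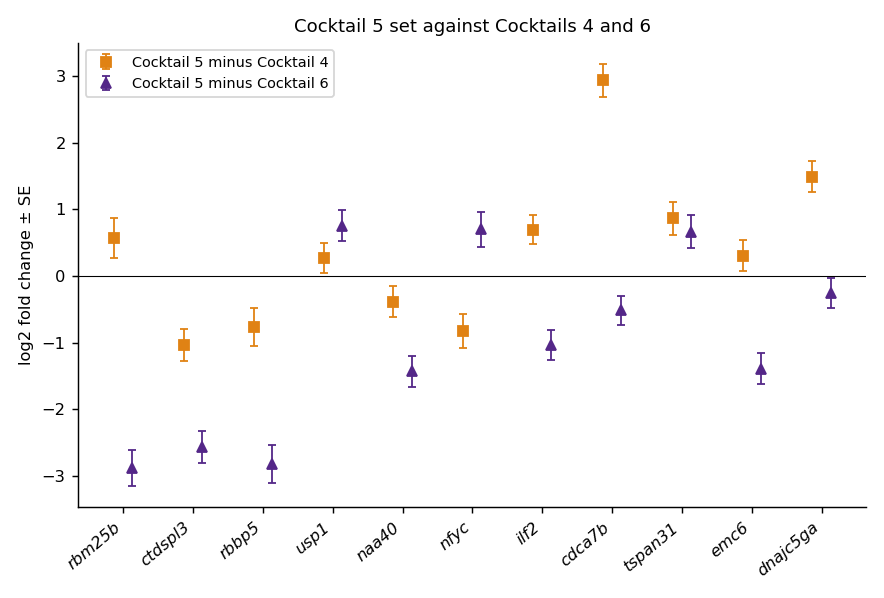
Log2 fold change with its standard error of Cocktail 5 minus Cocktail 4 (orange squares) and minus Cocktail 6 (purple triangles) for the 11 genes. The differences from Cocktail 4 run from -1.04 for ctdspl3 to 2.94 for cdca7b, and those from Cocktail 6 from -2.88 for rbm25b to 0.76 for usp1.

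The 36 genes higher in Cocktail 5 than in the mean of the others included enzymes of lipid and amino acid metabolism, 2 ubiquitin ligases and a splicing factor, and for 15 of them both Cocktail 5 libraries lay above all 14 others. None of the 36 was called above Cocktail 6 taken singly, where the only higher gene was rnf128a. Of the 15, bckdha was called above 5 single cocktails and sulf2a above Cocktail 8 alone. The genes dchs1a, kctd12.1, sc:d217 and mettl4 were called above no single cocktail. Over all genes tested, 154 (1.06%) had both Cocktail 5 libraries above all 14 others and 97 (0.668%) had both below. The number of higher genes rested largely on replicate 2 of Cocktail 5. That library also had the highest share of reads in no feature and the most genes with a count of the 16 cocktail libraries, and the part of these measures was not tested. In 31 of the 36 the level was higher in replicate 2 than in replicate 1, as it was in 50.7% of all genes tested, and the median ratio between the libraries was 1.56. Without replicate 2 of Cocktail 5 only gbgt1l4, a glycosyltransferase gene, was called higher, and with replicate 1 left out instead there were 45 such genes, 18 of them among the 36. Other libraries moved the number too, to 224 when Cocktail 1 replicate 2 was dropped, 16 and 23 for replicates 1 and 2 of Cocktail 6, 22 for Cocktail 4 replicate 1 and 22 for Cocktail 7 replicate 2.

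Among enzymes, pcyt2 encodes the cytidylyl transferase of phosphatidylethanolamine synthesis. It had 205 and 346 CPM in Cocktail 5, 64.3, 108 and 145 CPM as lowest, median and highest in the 14 others, and 83.2 and 74.4 CPM in the controls. It was above every other library, by 1.41 ± 0.18 against the other cocktails (adjusted p = 0.000292) and 1.81 ± 0.28 against the control (adjusted p = 0.000144). With limma on TPM, the call of pcyt2 against the other cocktails was lost (adjusted p = 0.0658). The same loss was met at each of the 15 genes above all 14 others except bckdha, rnf126 and si:dkey-3h3.3. The gene idi1, for the isopentenyl-diphosphate isomerase of sterol and isoprenoid synthesis, stood at 58.5 and 135 CPM in Cocktail 5, 22.1 to 56.9 CPM in the others and 61.1 and 53.9 CPM in the controls. Replicate 1 was thus just above the highest other library and between the controls, and the fold change of 1.48 ± 0.22 against the others (adjusted p = 0.0013) went with one of 0.76 ± 0.33 against the control that was not called (adjusted p = 0.117).

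Branched-chain amino acid breakdown was represented by bckdha, the E1-alpha subunit of the branched-chain ketoacid dehydrogenase, and by bckdk, the kinase that switches this enzyme off. Levels of bckdha were 196 and 319 CPM in Cocktail 5, 89.2, 114 and 170.4 CPM as lowest, median and highest in the others, and 137 and 129 CPM in the controls, without overlap (1.17 ± 0.15 against the others, adjusted p = 0.000313). For bckdk the 325 and 399 CPM of Cocktail 5 lay within the range of the other cocktails, 18.6 to 406 CPM, and below the 542 and 551 CPM of the controls. Its call of 1.19 ± 0.17 (adjusted p = 0.000993) went with low values in Cocktails 2 and 3, with means of 30.7 and 29.2 CPM. Against the control bckdk was at -0.59 ± 0.25 in Cocktail 5, which was not called (adjusted p = 0.109).

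The pattern of bckdk was not rare. In 11 of the 36 the mean of the other cocktails was called below the control, as it was in 7.03% of all genes tested. That share is not a baseline, because the same mean served to choose the 36. In Cocktail 5, 22 of the 36 were not called above the control. One such gene was srsf6b, of the SR family of splicing factors. It had 241 and 375 CPM in Cocktail 5, 64.9, 151 and 217 CPM as lowest, median and highest in the others, and 302 and 298 CPM in the controls, so that Cocktail 5 lay on both sides of the controls. The difference of 1.05 ± 0.17 from the others (adjusted p = 0.00317) stood beside one of 0.04 ± 0.24 from the control (adjusted p = 0.936).

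The remaining 14 of the 36 were called above both references, where 9.38% of all genes tested were called above the control. Here too the share is not a baseline, because the Cocktail 5 libraries enter both comparisons. They included the ubiquitin ligase trim25, an RNA-binding E3 of antiviral signalling in mammals, with 35.6 and 30.6 CPM in Cocktail 5, 6.86 to 21.7 CPM in the others and 12.4 and 7.83 CPM in the controls (1.44 ± 0.27 against the others, adjusted p = 0.0152). That call was lost without replicate 1 (adjusted p = 0.179) or replicate 2 (adjusted p = 0.616) of Cocktail 5 and with limma on TPM (adjusted p = 0.145). The heparan sulfate sulfatase gene sulf2a had 50.99 and 49.08 CPM in Cocktail 5, 2.37, 12.2 and 47.9 CPM as lowest, median and highest in the others and 3.92 and 2.11 CPM in the controls. Its call against the others was lost in the same 3 settings (adjusted p = 0.104, 0.616 and 0.181). The other cocktails also exceeded the control at sulf2a, by 2.15 ± 0.52 (adjusted p = 0.0036), as they did at the calcium-dependent kinase gene camk4, by 1.93 ± 0.40 (adjusted p = 0.000944).

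The camk4 level was 34.6 and 43.8 CPM in Cocktail 5, 5.14 to 30.0 CPM in the others and 2.30 and 6.33 CPM in the controls, with both Cocktail 5 libraries above the rest. The call of camk4 against the other cocktails (1.29 ± 0.28, adjusted p = 0.0369) was lost in 14 alternatives, among them leaving out replicate 1 (adjusted p = 0.116) or replicate 2 (adjusted p = 1.00) of Cocktail 5. Further genes above all 14 others were the ubiquitin ligase gene rnf126, at 268 and 388 CPM as against a highest other level of 212 CPM and controls of 206 and 167 CPM, and the protocadherin gene dchs1a, at 18.3 and 26.1 CPM as against at most 8.39 CPM and controls of 7.37 and 8.74 CPM. The gene kctd12.1 had 17.3 and 37.2 CPM in Cocktail 5, at most 12.1 CPM in the others and 3.69 and 3.62 CPM in the controls. Loci named by clone or provisional symbol (CABZ01034698.2, sc:d217, BX649337.1 and si:dkey-3h3.3) and the methyltransferase-like gene mettl4 completed the 15. Their fold changes against the others lay between 1.00 ± 0.22 and 2.36 ± 0.42. In that order, Cocktail 5 had 18.9 and 23.0, 35.25 and 43.0, 116 and 149, 82.5 and 125, and 89.7 and 128 CPM. The controls had 3.92 and 7.23, 5.76 and 7.23, 40.8 and 37.05, 35.25 and 33.4, and 56.9 and 42.8 CPM. Calls were least stable for sc:d217, lost in 23 alternatives, and mettl4, lost in 22, with adjusted p = 0.174 and 0.0772 without replicate 1 of Cocktail 5. Without replicate 2 none of the 15 was called.

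**Figure D4:**
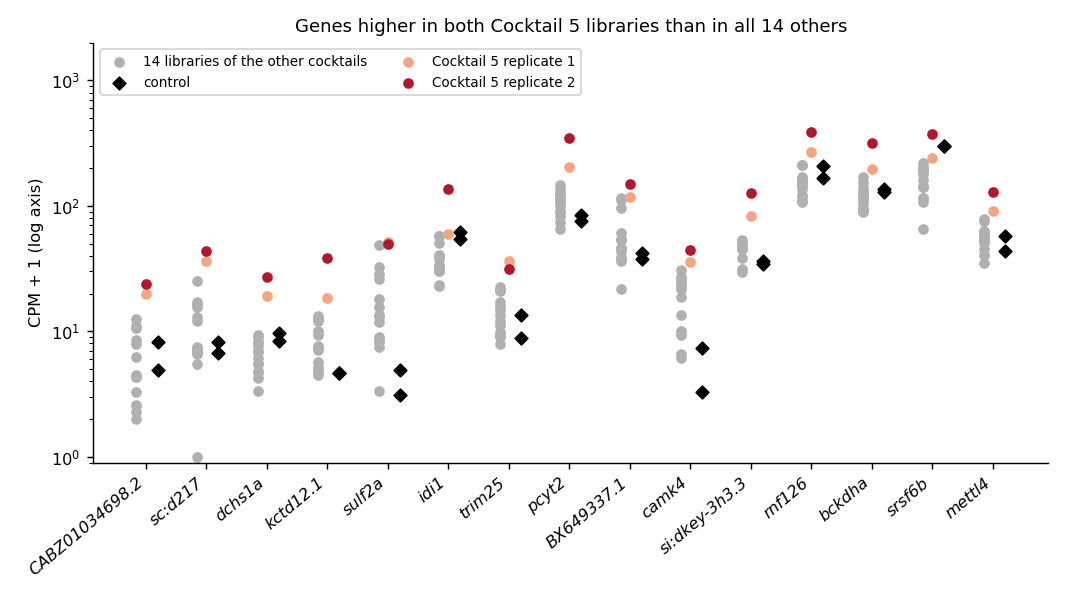
CPM plus 1 on a log axis of the 15 genes called higher in Cocktail 5 with both of its libraries above all 14 others. Replicate 2 (dark red) is above replicate 1 (light red) in 13 of the 15, and the controls (black) reach the Cocktail 5 levels at srsf6b and idi1.

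Gene lists for the tissues and pathways of the early embryo held almost no gene called between Cocktail 5 and the other cocktails. Over all genes tested, 0.0689% were called lower and 0.248% higher. At such shares few or no calls would fall in lists of this size, so their absence says little about the lists. Of 27 lists, only the ubiquitin conjugating and deubiquitinating enzymes held a called gene, usp1, which was lower. The median log2 fold change against the other cocktails was 0.03 over all genes tested. It was 0.14 for 18 enveloping layer genes, 0.00 for 11 yolk syncytial layer genes, 0.03 for 16 mesendoderm and Nodal genes, 0.08 for 13 genes of the p53 and DNA damage response and -0.20 for 76 cytosolic ribosomal protein genes. The list furthest from zero was interferon and RNA sensing at 0.42, with 8 genes tested, where the medians of the 2 Cocktail 5 libraries had an SD of 0.27.

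Cocktail 5 and the other cocktails were compared with the same controls, so their values against the control are only set side by side. Cocktail 5 had 504 genes lower (3.47%) and 1361 higher (9.38%), and the mean of the 7 others had 1021 lower (7.03%) and 1413 higher (9.74%). The mean of the 7 others rests on 14 libraries and is more precise, with a standard error at ctdspl3 of 0.16 as against 0.24 for Cocktail 5. The numbers of calls therefore do not compare the sizes of the changes. The number of lower genes was 244 and 193 without replicate 1 or 2 of Cocktail 5 and 257 and 256 without replicate 1 or 2 of the control. The number of higher genes was 795 without Cocktail 5 replicate 2 and 768 and 749 without replicate 1 or 2 of the control.

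Enveloping layer genes were among those that fell in Cocktail 5, 8 of the 18 tested, as against 3.47% of all genes. In the mean of the 7 others 14 of the 18 were called lower, as against 7.03% of all genes. The list median was -2.61 in Cocktail 5 and -2.76 in the others, against 0.06 and 0.03 over all genes. The keratin gene krt5 had 11.7 and 12.1 CPM in Cocktail 5, a median of 20.5 CPM in the others and 391 and 444 CPM in the controls, and krt97, another keratin gene, had 10.4 and 14.4 CPM in Cocktail 5, a median of 14.5 CPM in the others and 271 and 253 CPM in the controls. The summed level of the 9 enveloping layer markers was 1481 and 1207 CPM in Cocktail 5, 15.2 to 2460 CPM in the other cocktails and 5727 and 5509 CPM in the controls. None of these markers was at 0 in Cocktail 5.

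In the yolk syncytial layer list 6 of 11 genes fell against the control, with a median of -2.44. They included mttp, the lipid transfer protein that loads lipoproteins, at 20.5 and 11.9 CPM in Cocktail 5 as against 182 and 192 CPM, and the endoderm factor gata6 at 17.9 and 26.3 CPM as against 237 and 203 CPM. The 4 markers summed to 449.7 and 338 CPM in Cocktail 5, 3.57 to 840.0 CPM in the others and 789 and 787 CPM in the controls. Of 16 mesendoderm and Nodal genes 5 fell, among them the notochord factor tbxta, which went from 294 and 321 CPM in the controls to 34.0 and 47.3 CPM, and the endoderm factor sox32, from 110.1 and 83.4 CPM to 16.4 and 20.2 CPM. The signalling lists had fewer calls, with 1 of 10 ventral BMP and Wnt genes (bmp4) and 2 of 12 dorsal organizer genes (fgf8a and admp) lower. Over all genes tested the share was 3.47%. Their list medians of -1.99 and -1.48 were nevertheless further below zero than the -0.935 of the mesendoderm and Nodal list. In the mean of the 7 others, 9 of 11 yolk syncytial layer genes were called below the control. So were 5 of 16 mesendoderm and Nodal, 6 of 10 ventral BMP and Wnt and 5 of 12 dorsal organizer genes. The share over all genes tested was 7.03% there, and the list medians were -2.51, -0.81, -1.71 and -1.18 in that order.

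Genes of the oocyte and germ plasm were called above the control in 7 of 20 cases, as against 9.38% of all genes tested. Their list median was 0.67. In the mean of the 7 others 6 of 20 were called higher, as against 9.74% of all genes tested, with a list median of 0.70. The organiser of the Balbiani body, buc, had 1276 and 1244 CPM in Cocktail 5, 633, 916 and 1302 CPM as lowest, median and highest in the other cocktails and 191 and 171 CPM in the controls (2.80 ± 0.24, adjusted p = 2.47e-07). The maternal deadenylation adaptor gene btg4 had 249 and 213 CPM in Cocktail 5, 117 to 584 CPM in the others and 47.0 and 43.7 CPM in the controls. The 5 germ plasm markers summed to 1731 and 1705 CPM in Cocktail 5, 988 to 1993 CPM in the others and 493 and 476 CPM in the controls. The share of unmapped reads differed as well, at 25.9% and 28.8% in Cocktail 5, 21.6% to 47.3% in the other cocktails and 10.1% and 10.8% in the controls, and its part in these differences was not tested.

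**Figure D5:**
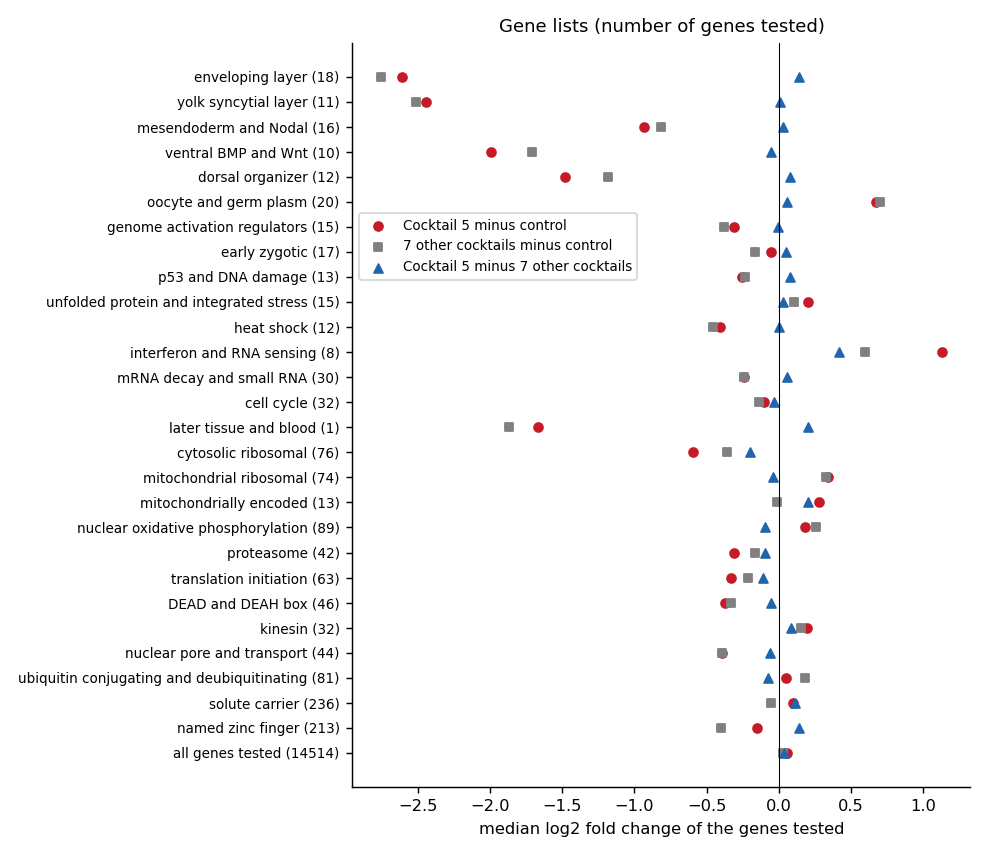
Median log2 fold change of the tested genes of 27 gene lists and of all genes tested, for Cocktail 5 minus control (red), the 7 other cocktails minus the same controls (grey) and Cocktail 5 minus the other cocktails (blue). The blue points lie between -0.20 and 0.42, while the red and grey points of the enveloping layer list lie at -2.61 and -2.76.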

How the data were processed

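Per the labels' protocols, total RNA was extracted with a spin-column kit and made into Nextera XT libraries at reduced volume. This kit does not mark strand, so reads of a gene and an antisense partner cannot be told apart. The submitters' processing notes name bcl2fastq 2.20 and the build danRer11, and no label or file header names the aligner, the counter or the annotation. The authors deposited 1 table of raw counts per library. A second deposited table holds TPM values, a unit inferred from the values, and was used for 1 alternative. The 4 rows naming no gene, 29.8% to 55.5% of the reads in cocktail tables and 22.6% and 23.1% in controls, were left out. Total gene counts are given with the results, and no read was counted by molecular identifier.

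Groups came from sample titles, with 2 libraries in each of 9 groups. Counts were scaled by TMM and tested with edgeR 4.0.16 (R 4.3.3, glmQLFit and glmQLFTest, robust) with 1 coefficient per group and a spread shared by all 18 libraries (common BCV 0.280). The filterByExpr function removed genes of low count, with its minimum at 10. Contrasts were Cocktail 5 minus the mean of the 7 other cocktails, minus the control and, added after seeing the data, minus each other cocktail. A call needed a Benjamini-Hochberg adjusted p under 0.05 over all 14514 genes and a 2-fold change. The standard error is the log2 fold change over the root of F. The test was tried on simulated counts first. Library measures were compared by exact permutation of single libraries, which ignores that they come in pairs per cocktail.

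Named genes were those called lower against both references, or against the other cocktails alone, with both Cocktail 5 libraries below all 14 others and a mean of at least 5 CPM there (ctdspl3, rbbp5, unc45b, naa40 and rtkn2a). To these came the 10 largest increases with both libraries above all 14 others (CABZ01034698.2, sc:d217, dchs1a, kctd12.1, sulf2a, idi1, trim25, pcyt2, BX649337.1 and camk4), and up to 4 genes per list. All other genes named were chosen after their values were seen. The comparisons, members and 27 gene lists were chosen with earlier results of these data known. Other settings were no filter, DESeq2 1.42.0, size factors by RLE, no fold minimum or one of 3, the replicate number as a block, limma 3.58.1 on log2(TPM + 1), a scale that understates changes of low genes, kept at 1 TPM or more in 2 libraries, only the groups compared, each library left out, and both libraries of each other cocktail left out. Of 32520 genes, 80 had no name, and 561 names belonged to several identifiers. Sequences and coordinates were not analysed here.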

Additional observations from a re-analysis of the deposited data

Results flagged for a closer look

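The share of reads that mapped nowhere was 25.9% in Cocktail 5 replicate 1 and 28.8% in Cocktail 5 replicate 2. These values drew attention because the comparisons leave unmapped reads out and because both lie above the 10.1% and 10.8% of the controls. The other 14 cocktail libraries ran from 21.6% to 47.3% with a median of 28.5%, and Cocktail 5 was not distinguished from them (exact permutation test, two-sided p = 0.625 over 120 splits). What these reads are was not tested.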

How the results depend on the processing

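The 10 lower and 36 higher genes against the other cocktails were 13 and 31 under DESeq2, 10 and 32 under RLE size factors, and 10 and 13 with limma on log2(TPM + 1), which moved the split towards lower calls. They were 16 and 90 without a filter, 15 and 63 with no fold minimum, 7 and 14 with a minimum of 3, and 9 and 23 with only the groups compared. Leaving out both libraries of 1 other cocktail gave 7 (Cocktail 2) to 14 (Cocktail 4) lower and 19 (Cocktail 2) to 46 (Cocktail 8) higher genes. Leaving out 1 library gave 6 to 15 lower and 1 to 224 higher genes. Against the control, 504 lower genes became 842 with no fold minimum, 274 with a minimum of 3, 1075 with only the groups compared and 193 to 257 on leaving out a library of either group. The 1361 higher genes became 705 with a minimum of 3 and 749 to 990 on leaving out 1 library. The 11 genes lower than at least 5 single cocktails became 5 with a minimum of 3 and 7 to 13 on leaving out 1 library, and all 11 were called again under DESeq2, RLE, no filter, TPM and only the groups compared. Against Cocktail 4, 2 lower and 23 higher genes became 5 and 67 under DESeq2, 7 and 11 with limma, 9 and 164 without a filter, 0 and 18 with a minimum of 3, and 2 and 13 with only the groups compared, with 0 to 6 and 7 to 139 on leaving out 1 library. Against Cocktail 6, 5 lower and 1 higher became 8 and 9 under DESeq2, 8 and 4 with limma, 13 and 12 without a filter, 3 and 0 with a minimum of 3, and 5 and 0 with only the groups compared, with 3 to 8 and 0 to 6 on leaving out 1 library. The cause of these moves was not tested, except that a higher fold minimum can only remove calls. Of the alternatives for single named genes, 895 left the direction and the status of called or not called as they were. A further 131 lost the call, 8 gained it and 0 changed sign. The 895 include alternatives in which a gene not called to begin with stayed so. Against the other cocktails, ilf2 gained the call without Cocktail 1 replicate 1 and without both libraries of Cocktail 4. In its remaining alternatives it stayed uncalled. List medians against the other cocktails were also recomputed under RLE, limma and with each Cocktail 5 library left out. Of these, 69 moved by less than the SD between the 2 Cocktail 5 libraries, and 39 by more.

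The labels do not say that the replicate numbers pair the libraries. Over 36 pairs of groups, the deviations of same-numbered libraries correlated between -0.124 and 0.125. Such values give no sign of pairing but cannot exclude it. With the number as a replicate block, 8 genes were lower and 20 higher than in the other cocktails, and against Cocktail 6 5 were lower and 0 higher. All 11 genes lower than single cocktails kept their calls.

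Depth limits the lowest genes. Changes at unc45b and dap1b rest on 5 to 21 counts per Cocktail 5 library, and the 2 libraries per group set the precision of every value. Intervals and tests cover the spread between these libraries, not between injections.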
